A study of Homo sapiens with 6 samples.

Results

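The genes described here encode the proteins of the cytosolic ribosome, and they were chosen by name. A gene was a member when the deposited table gave it as protein-coding and its symbol was *RPSA* or read RPL or RPS, an optional P, digits and an optional A or X. The rule took 77 of the 58735 genes in the table, 46 of the large subunit and 31 of the small subunit, and used no measured value. All 77 reached the minimum level for testing, among 13621 genes tested. *FAU*, which also encodes a ribosomal protein, and paralogs whose symbols end in L lie outside the name pattern and are given beside the members.

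The cells were TPC-1, an established line from a human papillary carcinoma of the thyroid. The mRNA of wild strain TPC-1 (3 libraries) was compared with that of *RRM2*-OE-TPC-1 (3 libraries), the same line infected with a lentivirus (LV18) that carries *RRM2* under a CMV promoter and selected with puromycin. *RRM2* encodes the small subunit of ribonucleotide reductase. A library of cells with an empty vector was not analysed here, so infection, selection and *RRM2* cannot be told apart. The genotype labels of *RRM2*-OE-TPC-1 replicates 2 and 3 read RRM3 and RRM4, while their titles read *RRM2*. *RRM2* itself was at 8.52 to 9.17 FPKM (fragments per kilobase of gene length, scaled to depth) in wild strain TPC-1 and at 47.2 to 50.4 FPKM in *RRM2*-OE-TPC-1.

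A ribosome reads mRNA on its small subunit and joins amino acids on its large subunit. Both subunits are built of ribosomal RNA and of proteins that are mostly needed in equal numbers, so their genes are among the most strongly transcribed of a growing cell. The mRNAs share a terminal oligopyrimidine (TOP) tract, a C at the first base followed by a run of C and T, through which mTORC1 and LARP1 control their translation. Free ribosomal proteins, above all those of the 5S ribonucleoprotein, also bind MDM2 and stabilize p53.

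The start windows of 4 genes that fell and 4 that rose are shown because this tract is the sequence that the family has in common. Each window runs 5′ to 3′ from 10 bases before the RefSeq start (GRCh38.p14) to the base at position 20, and capitals mark the run of C and T at or next to the start.
*RPL3*: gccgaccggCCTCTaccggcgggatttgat
*RPL12*: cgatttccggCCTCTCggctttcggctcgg
*RPS9*: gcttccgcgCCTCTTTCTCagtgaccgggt
*RPL13A*: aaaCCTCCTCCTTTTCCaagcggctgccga
*RPS26*: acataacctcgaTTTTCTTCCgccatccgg
*RPL26*: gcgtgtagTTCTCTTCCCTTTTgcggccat
*RPL38*: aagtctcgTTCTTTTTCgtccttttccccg
*RPL36*: cggcgccagCCCTTCCgccacggccgtctc

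The windows lie at chr22:39319604-39319633 (minus strand) for *RPL3*, chr9:127451387-127451416 (minus strand) for *RPL12*, chr19:54200848-54200877 (plus strand) for *RPS9* and chr19:49487598-49487627 (plus strand) for *RPL13A*. Those of the genes that rose lie at chr12:56041908-56041937 (plus strand) for *RPS26*, chr17:8383174-8383203 (minus strand) for *RPL26*, chr17:74203668-74203697 (plus strand) for *RPL38* and chr19:5690285-5690314 (plus strand) for *RPL36*. The run of *RPL13A* held 14 bases and so did that of *RPL26*, whereas that of *RPL3* held 5. In *RPS26* the listed start is a G, and its run of 9 begins at position 3. Long runs are thus found in a gene that fell and in a gene that rose.

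Of the 62 members with an entry in the RefSeq table, 46 (74.2%) had a C at the listed start followed by at least 4 pyrimidines, against 5.14% of all 27305 genes and 8.70% of 69 mitochondrial ribosomal protein genes. A gene with several listed starts was counted once, as holding a motif when any of its windows did. The tract was listed for 12 of 15 members that rose, 6 of 10 that fell and 28 of 37 that did not pass the test. CTTTCC within 30 bases of the start, on the coding strand, was found in 35.5% of members and 3.60% of all genes, and CTCTTTCC, which contains it, in 16.1% and 0.436%. Over the whole window of 300 bases and on both strands, CCGGAAG was held by 35.5% of members and 12.2% of all genes, while GGGCGG was held by 58.1% and 48.3% and TATAAA by 8.07% and 13.99%. AAGATGGC was held by 9.68% of members, 30.4% of mitochondrial ribosomal protein genes and 3.52% of all genes.

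Members were abundant and spanned a wide range. The median of their mean levels was 156 FPKM, and *RPL8* at 846 FPKM lay 699 times above *RPS10* at 1.21 FPKM. The 4 highest were *RPL8*, *RPS2* (741 FPKM), *RPL7A* (717 FPKM) and *RPS12* (702 FPKM), of which the first 3 were also the highest when reads were divided by mRNA length. *RPS12* was 28th on that scale, since the deposited FPKM divide by the summed length of all annotated exons, which was 1.06 to 33.3 times the mRNA length of a member.

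Together the members took 5.08%, 4.85% and 5.02% of the reads on genes in wild strain TPC-1 and 4.73%, 4.77% and 4.70% in *RRM2*-OE-TPC-1. The groups did not overlap, at 4.98% ± 0.117 and 4.73% ± 0.0391 (SD, n = 3 each). On the scale of the deposited FPKM, however, their sum was 17177, 16089 and 16650 in wild strain TPC-1 and 16517, 16762 and 16581 in *RRM2*-OE-TPC-1, so that the groups overlapped. In these bulk libraries, a different amount of ribosomal protein mRNA per cell cannot be told apart from a different total of mRNA per cell.

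The changes of most members were small. Of the 77 members, 18 were higher and 12 were lower in *RRM2*-OE-TPC-1 at an adjusted p of 0.05 or less, which is 39.0% of members, beside 67.6% of all tested genes (34.9% higher and 32.7% lower). Only *RPS26* also passed an absolute log2 fold change of 1, which 11.5% of all tested genes passed with the adjusted p (4.48% higher and 6.97% lower). The groups did not overlap in 22 members that were higher and 15 that were lower, beside 72.2% of all tested genes (37.3% higher and 35.0% lower). The median log2 fold change was 0.01 with quartiles of -0.08 and 0.13, against quartiles of -0.37 and 0.36 over all tested genes, and 72 members lay within 0.3 of 0. Of the 30 calls, 22 held with any 1 of the 6 libraries left out, while 3 rises and 5 falls were lost without at least 1 of them. These counts depend on the scaling: scaled to library totals, 15 members were higher and 22 lower (31.3% and 36.5% of all tested genes), and after quantile normalization 16 and 38 (34.9% and 32.01%).

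**Figure D1:**
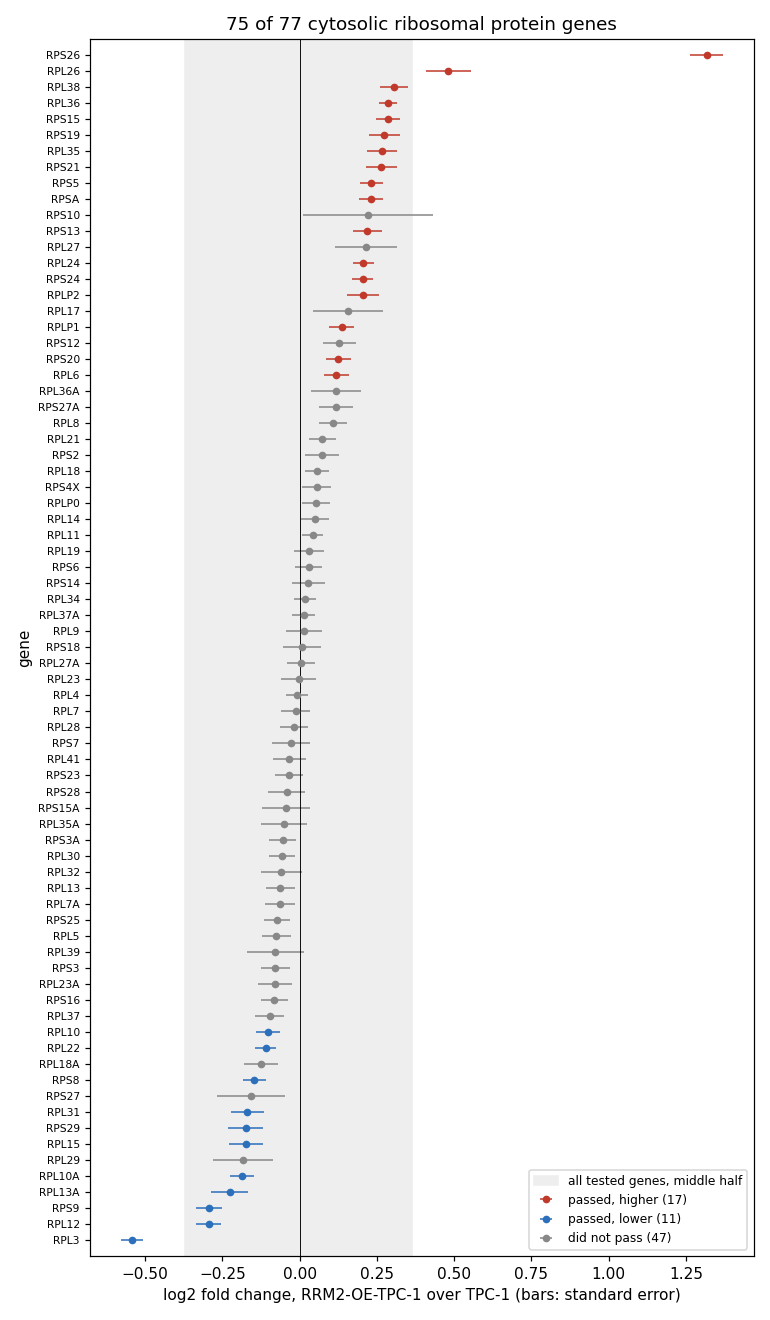
Log2 fold change of 75 of the 77 genes in RRM2-OE-TPC-1 over wild strain TPC-1 (x axis), with standard errors as bars, genes ordered by change (y axis) and color showing the test. Most genes lie within the grey band, the middle 50% of all tested genes, while RPS26 at 1.32 and RPL3 at -0.54 mark the ends.

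*RPS26*, a protein of the mRNA exit channel that contacts the bases upstream of the start codon, rose most. Its levels were 52.0, 52.5 and 53.3 FPKM in wild strain TPC-1 and 121, 142 and 131 FPKM in *RRM2*-OE-TPC-1. The lowest *RRM2*-OE-TPC-1 library thus lay well above the highest wild strain library. The rise was 2.49-fold (log2 fold change 1.32, SE 0.05, adjusted p = 4.41e-07), and leaving out any 1 library gave values of 1.26 to 1.37 on the log2 scale. Exact copies of 44.5% of the 150-base windows of its mRNA occur in 7 pseudogenes, yet these and its other named pseudogenes held 0.379 reads for every 100 on *RPS26*.

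*RPL26*, a protein near the exit of the peptide tunnel that also binds p53 mRNA, measured 11.7, 12.4 and 10.4 FPKM in wild strain TPC-1 and 17.2, 15.7 and 15.3 FPKM in *RRM2*-OE-TPC-1. The groups did not overlap (log2 fold change 0.48, SE 0.07, adjusted p = 0.000528). With the reads of its named pseudogenes added, which are 23.9 for every 100 on the gene, the log2 fold change was 0.39.

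Smaller and tight rises were seen in 3 further members. *RPL38*, a large subunit protein known for its role in translating Hox mRNAs, went from 30.5 ± 1.08 to 37.7 ± 1.67 FPKM (mean ± SD, n = 3 each). *RPL36* went from 62.9 ± 0.728 to 76.8 ± 0.889 FPKM, and *RPS15*, a protein near the decoding site, from 162 ± 6.45 to 198 ± 3.29 FPKM. Their log2 fold changes were 0.31, 0.29 and 0.29, their adjusted p-values were at most 0.000397, and no *RRM2*-OE-TPC-1 library was as low as a wild strain library. A further 12 members rose by 0.12 to 0.27 on the log2 scale.

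*RPL3*, which reaches toward the peptidyl transferase center where peptide bonds form, fell most. It measured 506, 482 and 491 FPKM in wild strain TPC-1 and 337, 336 and 341 FPKM in *RRM2*-OE-TPC-1, a level 0.686 times as high (log2 fold change -0.54, SE 0.04, adjusted p = 5.28e-06). Its 3 *RRM2*-OE-TPC-1 libraries were nearly equal, and all lay far below the lowest wild strain library. Leaving out any 1 library gave values of -0.56 to -0.52.

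*RPL13A*, also known as an interferon-regulated repressor of translation, measured 715, 654 and 708 FPKM in wild strain TPC-1 and 634, 586 and 556 FPKM in *RRM2*-OE-TPC-1. It fell without overlap, by 0.23 on the log2 scale (adjusted p = 0.011). With no filter on low values the adjusted p of *RPL13A* was 0.0513. *RPS9*, a protein at the mRNA entry of the small subunit, fell by 0.29 from 218, 209 and 226 to 183, 175 and 174 FPKM (adjusted p = 0.000335). *RPL10A* fell by 0.19, from 400 ± 9.18 to 352 ± 9.23 FPKM (adjusted p = 0.00305). The 12 members on chromosome 19 included 4 that rose and 3 that fell, 7 in all or 58.3%, beside 67.6% of all tested genes.

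**Figure D2:**
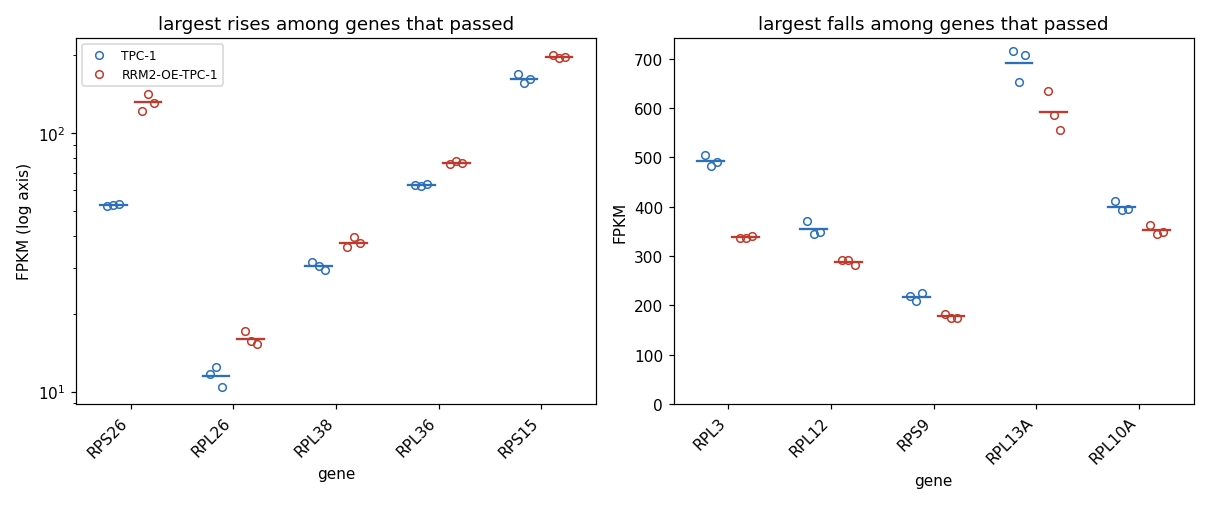
FPKM per library (points) with group means (lines) for 5 of the 6 largest rises (left, log axis) and 5 of the 6 largest falls (right, linear axis from 0) among members that passed the test. In none of the 10 genes do the 3 wild strain TPC-1 libraries and the 3 RRM2-OE-TPC-1 libraries overlap.

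Members of the P stalk were called in different directions. In this stalk, which recruits translation factors that use GTP, *RPL12* at its base fell from 372, 344 and 348 to 291, 293 and 283 FPKM (log2 fold change -0.29, adjusted p = 0.000351). The acidic proteins *RPLP1* and *RPLP2* rose by 0.14 (adjusted p = 0.0174) and 0.20 (adjusted p = 0.00811), from 186 ± 8.21 to 204 ± 3.49 FPKM and from 140 ± 7.89 to 162 ± 7.65 FPKM. The rise of *RPLP1* did not pass after scaling to library totals (0.08, adjusted p = 0.0988), and without wild strain replicate 2 or 3 its adjusted p was 0.0523 or 0.0531. After quantile normalization neither rise passed (0.02, adjusted p = 0.547, and 0.09, adjusted p = 0.129). *RPLP0*, which holds the acidic proteins, was at 0.05 (adjusted p = 0.343), a value that turned to -0.01 under scaling to library totals and -0.04 under quantile normalization.

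Around the peptidyl transferase center, *RPL3* fell while *RPL8*, the most abundant member, measured 851, 795 and 797 FPKM in wild strain TPC-1 and 872, 874 and 885 FPKM in *RRM2*-OE-TPC-1. The *RPL8* libraries did not overlap, and the difference of 0.11 on the log2 scale did not pass the test (adjusted p = 0.068), whereas it passed under 4 of the alternatives. *RPL10*, which helps form the tRNA site, was called lower by 0.10 (adjusted p = 0.0441). That call was lost with any 1 of the 6 libraries left out, at adjusted p-values of 0.0513 to 0.116.

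The 5S ribonucleoprotein holds *RPL5* and *RPL11*, the proteins best known for binding MDM2. *RPL5* measured 211, 201 and 195 FPKM in wild strain TPC-1 and 181, 195 and 200 FPKM in *RRM2*-OE-TPC-1, and *RPL11* 186, 182 and 192 FPKM and then 196, 188 and 192 FPKM. The groups overlapped for both. The log2 fold changes were -0.08 (adjusted p = 0.195) and 0.04 (adjusted p = 0.322), and under scaling to library totals -0.13 (adjusted p = 0.0218) and -0.02 (adjusted p = 0.713). After quantile normalization both were called lower, *RPL5* at -0.19 (adjusted p = 0.00563) and *RPL11*, whose direction turned, at -0.09 (adjusted p = 0.0265).

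Of 8 members listed for the mRNA channel and decoding region, 2 rose, *RPS26* and *RPS15*, and none of the 8 fell. *RPS9*, at the mRNA entry, was not in that list and fell by 0.29, as given above. Of all tested genes, 34.9% were higher and 32.7% lower. The counts of the 8 members became 2 higher and 2 lower under scaling to library totals, and 2 and 4 under quantile normalization. Along the peptide tunnel, *RPL26* and *RPL35* rose and *RPL22* and *RPL31* fell among 9 members. Those are 22.2% each way, beside the same shares of all tested genes. The fall of *RPL22* by 0.11 (adjusted p = 0.0211) was not called without *RRM2*-OE-TPC-1 replicate 2 or wild strain replicate 3 (adjusted p = 0.0813 and 0.081), nor that of *RPL31* by 0.17 (adjusted p = 0.0238) without wild strain replicate 1 (adjusted p = 0.0782). *RPSA*, which is also known as a laminin receptor, rose from 267 ± 8.12 to 313 ± 6.87 FPKM (log2 fold change 0.23, adjusted p = 0.000867). *RPS6*, the substrate of S6 kinase, measured 302 ± 7.93 and 308 ± 13.3 FPKM, a log2 difference of 0.03 (adjusted p = 0.579) that turned to -0.03 under both of these scalings. *RPS27A*, which is made fused to ubiquitin, measured 140 ± 2.62 and 152 ± 12.1 FPKM (log2 difference 0.12, adjusted p = 0.0913), and replicate 1 of *RRM2*-OE-TPC-1 was its highest library at 166 FPKM.

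Of the 19 members whose loss causes Diamond-Blackfan anemia, a failure of red cell production, 6 were higher and 3 lower (31.6% and 15.8%, beside 34.9% and 32.7% of all tested genes), with a median log2 fold change of 0.04. Under quantile normalization 5 were higher and 8 lower, with a median of -0.09. Of the 46 large subunit members 8 rose and 8 fell (17.4% each). Of the 31 small subunit members 10 rose and 4 fell (32.3% and 12.9%). Each of these shares lay below that of all tested genes, at 34.9% higher and 32.7% lower. Under quantile normalization the large subunit counts became 7 and 27 (15.2% and 58.7%). The small subunit counts became 9 and 11 (29.03% and 35.5%), beside 34.9% and 32.01% of all tested genes.

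Within both groups, single libraries were often the highest or lowest. Wild strain replicate 1 was the highest of its group for 56 of the 77 members and wild strain replicate 2 the lowest for 54. Replicate 1 of *RRM2*-OE-TPC-1 was the lowest of its group for 41 members and the highest for 28, and it lay at least 0.2 below the mean of the other 2 on the log2 scale for 10 members. *RPS27*, for example, measured 200, 265 and 260 FPKM in *RRM2*-OE-TPC-1 and 293, 248 and 263 FPKM in wild strain TPC-1, and *RPL29* 219, 283 and 286 FPKM against 310, 288 and 290 FPKM. Neither passed the main test. *RPL29*, whose groups did not overlap, was called lower under scaling to library totals (adjusted p = 0.0483) and quantile normalization (adjusted p = 0.0467). *RPS27* was called under neither (adjusted p = 0.0989 and 0.0554). Reads on mitochondrial genes were lowest in *RRM2*-OE-TPC-1 replicate 1, at 4.29% against 4.79% to 5.89% in the others, and the part of this in the values above was not tested. Without that library, 18 members were higher and 11 lower, against 19 and 8 without wild strain replicate 1 and 15 and 14 without wild strain replicate 2. No share of all tested genes stands beside these counts.

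Several of the lowest members share mRNA sequence with other annotated genes. Exact 150-base windows were looked up in all other GENCODE 29 genes, and 38 members shared none. Of the 7 members under 20 FPKM, 5 had at least 40% of their windows in another gene. *RPS29* at 9.60 FPKM shared none and *RPS15A* at 14.1 FPKM shared 18.6%. The gene length that FPKM divide by was 33.3 times the mRNA length for *RPS29* and 12.7 times for *RPS15A*. With reads divided by mRNA length, *RPS29* ranked 61st and *RPS15A* 65th of the 77 members, against 73rd and 71st by FPKM. *RPL7* shared 56.5% at 536 FPKM, and over the 77 members, counted in the same libraries, level and shared windows had a Spearman rho of -0.126 (Pearson r -0.483). *RPS10* was at 1.40, 1.08 and 0.852 FPKM in wild strain TPC-1 and 1.53, 0.990 and 1.41 FPKM in *RRM2*-OE-TPC-1. It shares 88.2% of its windows and, with the readthrough gene *RPS10-NUDT3*, 39.4% of its exon bases. Its log2 difference of 0.22 (adjusted p = 0.376) became -0.48 (adjusted p = 0.00758) with the reads of its named pseudogenes added. Of those 568 reads, 485 lay on *RPS10P7*, which itself was lower (log2 fold change -1.05, adjusted p = 0.000242). *RPS10P7* overlaps *AC096677.1* on the same strand, which was also lower (log2 fold change -1.35, adjusted p = 0.0206). *RPL36A* and *RPL17* also overlap readthrough genes, shared 73.2% and 84.6% of windows, and stood at 2.31 and 5.97 FPKM without passing (log2 differences 0.12 and 0.16). Counting by strand is not stated in the sources used here, and 29 members share exon bases with a gene on the opposite strand.

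**Figure D3:**
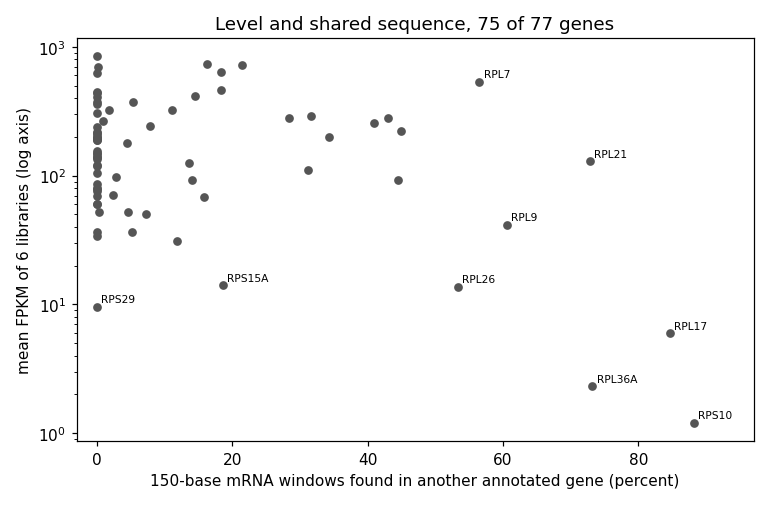
Mean FPKM over 6 libraries (y axis, log scale) against the percent of 150-base mRNA windows found in another annotated gene (x axis), with 1 point per gene for 75 of the 77 genes. The 3 lowest genes drawn, RPS10, RPL36A and RPL17, each share over 70% of their windows, while RPL21 at 72.8% stood at 130 FPKM.

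For some members the table places most reads on a pseudogene. The processed pseudogene *RPL9P9* held 491 to 524 FPKM in the 6 libraries while *RPL9* held 38.2 to 44.1 FPKM. *RPS28P7* held 827 to 995 FPKM while *RPS28* held 34.1 to 40.3 FPKM. The gaps are smaller in reads, which FPKM divide by gene length. Over all libraries, *RPL9P9* had 34997 reads against 20208 on *RPL9*, and *RPS28P7* had 18660 against 7464 on *RPS28*. None of these 4 genes passed the test. In all, 1132 pseudogenes carry the name of a member, 411 had a read in at least 1 library and 71 were tested. Of the 71, 10 were higher and 12 lower, 22 in all or 31.0%, beside 67.6% of all tested genes. The 1132 pseudogenes took 0.207% to 0.228% of reads on genes.

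Among the pseudogenes, which were picked here after their values were seen, *RPL3P4* moved as *RPL3* did, from 166, 163 and 165 FPKM to 121, 109 and 104 FPKM (log2 fold change -0.57, adjusted p = 3.74e-05). *RPL13AP5* fell by 0.27 (adjusted p = 0.0041), beside 0.23 for *RPL13A*. *RPL13AP20* on chromosome 12 (12875499 to 12876107, plus strand, outside any other GENCODE 29 gene) moved the other way. It measured 3.64, 3.91 and 2.78 FPKM in wild strain TPC-1 and 27.0, 30.2 and 27.9 FPKM in *RRM2*-OE-TPC-1, a rise of 3.02 on the log2 scale (SE 0.11, adjusted p = 3.06e-07). That is 8.11-fold, on 27 to 315 reads per library. *RPL32P33* fell from 5.02, 5.43 and 5.10 to 0.878, 1.04 and 1.75 FPKM (log2 fold change -2.05, adjusted p = 5.62e-05) while *RPL32* was at -0.06 (adjusted p = 0.45). *RPL32P33* had only 5 to 36 reads per library. It overlaps *LINC00511* on the opposite strand, which was also lower (log2 fold change -0.33, adjusted p = 0.0238), and counting by strand is not stated.

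The paralogs, which can replace their namesakes in the ribosome or act apart from it, rose in 4 of the 5 that were tested. None was called lower in the main test, and 80.0% were higher, beside 34.9% higher and 32.7% lower of all tested genes. The counts were 4 higher and 0 lower under scaling to library totals (31.3% and 36.5% of all tested genes). After quantile normalization they were 4 and 1 (34.9% and 32.01% of all tested genes). *RPS27L*, a p53 target, went from 5.75, 5.14 and 5.53 to 14.5, 14.8 and 15.6 FPKM (log2 fold change 1.43, SE 0.06, adjusted p = 3.43e-07), while *RPS27* was at -0.16 (adjusted p = 0.233). *RPL36AL* went from 76.2 ± 1.45 to 120 ± 1.01 FPKM (0.65, adjusted p = 7.94e-07) and *RPL26L1* from 15.1 ± 1.62 to 22.9 ± 2.89 FPKM (0.59, adjusted p = 0.00113). *RPL7L1* rose by 0.25 (adjusted p = 0.000894). *RPL22L1* was at -0.02 (adjusted p = 0.708), and *RPL3L*, *RPL10L* and *RPL39L* were under the minimum level, the last 2 with no read.

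**Figure D4:**
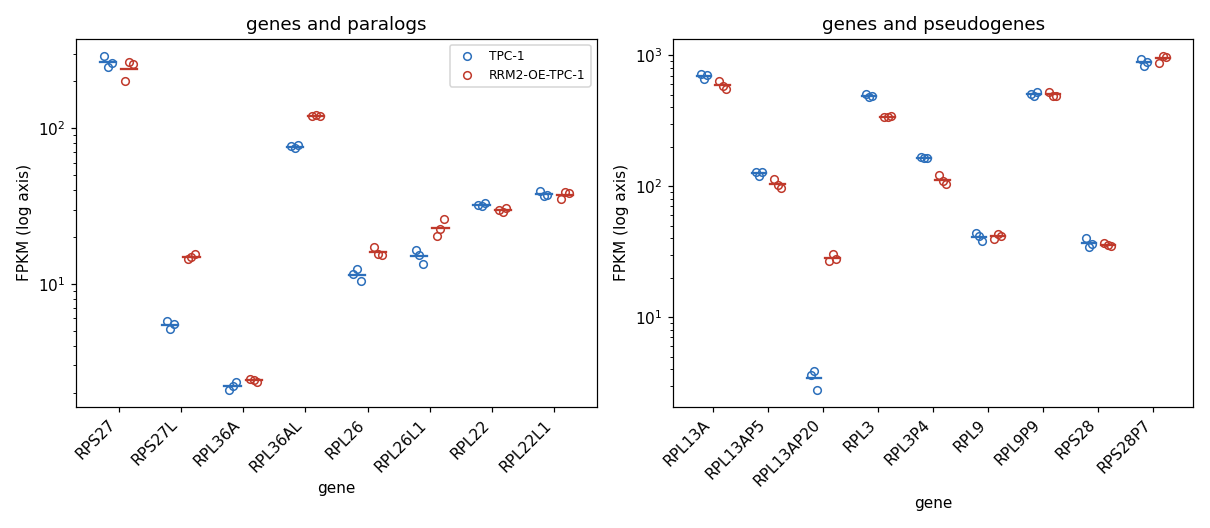
FPKM per library (points, log axes) with group means (lines) for members beside their paralogs (left) and pseudogenes (right), wild strain TPC-1 against RRM2-OE-TPC-1. RPS27L and RPL36AL lie higher in RRM2-OE-TPC-1, and RPL9P9 and RPS28P7 exceed their parent genes. RPL13AP20 rises 8.11-fold over its own wild strain level but stays below RPL13A and RPL13AP5, which fall.

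*FAU*, whose product is cut from a fusion with a ubiquitin-like protein, rose. It went from 74.6 ± 3.97 to 99.8 ± 5.22 FPKM (log2 fold change 0.42, adjusted p = 0.000175). Its log2 fold change lay above all but the 3 largest rises among the 77 members.

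Genes for proteins of the mitochondrial ribosome changed differently at the mRNA level from those for proteins of the cytosolic ribosome. Of 77 tested genes named MRPL or MRPS, 60 were higher and 2 lower (77.9% and 2.60%), with a median log2 fold change of 0.36. Among the cytosolic members 18 were higher and 12 lower, with a median of 0.01. Of all tested genes, 34.9% were higher and 32.7% lower. The mitochondrial counts were 54 and 2 under scaling to library totals and 51 and 3 under quantile normalization. The difference between the 2 families was described and not tested.

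**Figure D5:**
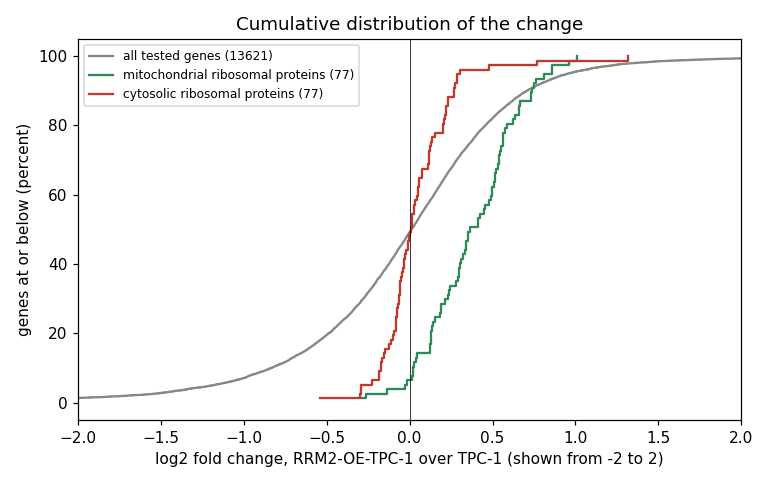
Percent of genes at or below a log2 fold change (x axis, RRM2-OE-TPC-1 over wild strain TPC-1) for all 13621 tested genes, 77 mitochondrial and 77 cytosolic ribosomal protein genes. The cytosolic curve is steep at its median of 0.01, and the mitochondrial curve lies to its right with a median of 0.36.

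Genes listed as chaperones and escorts of ribosomal proteins were mostly higher, with 7 of 10 higher, none lower and a median of 0.60. Those are 70.0% and 0%, beside 34.9% and 32.7% of all tested genes. *GRWD1*, which escorts the *RPL3* product, rose from 8.88 ± 0.339 to 20.5 ± 0.958 FPKM (log2 fold change 1.20). *TSR2*, which carries the *RPS26* product, rose from 12.5 ± 0.322 to 20.8 ± 1.08 FPKM (0.73), *BCCIP*, a chaperone of the *RPL23* product, from 10.03 ± 0.890 to 19.7 ± 0.586 FPKM (0.97), and *EIF6*, which keeps the large subunit from joining too early, from 36.4 ± 1.69 to 64.6 ± 3.50 FPKM (0.83). The adjusted p-values of these 4 were at most 5.38e-06. Under either other scaling 7 were higher and 1 lower.

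Of 18 tested other mRNAs with a TOP tract, 4 were higher and 7 lower (22.2% and 38.9%, beside 34.9% and 32.7% of all tested genes), with a median of -0.06 that was not tested. The counts were 3 and 11 under scaling to library totals and 3 and 13 under quantile normalization. *EIF4B*, a helicase cofactor of initiation, fell from 118 ± 1.88 to 74.7 ± 2.65 FPKM (log2 fold change -0.66, adjusted p = 1.79e-06) and *TPT1* by 0.36 (adjusted p = 4.31e-05). The nucleolar chaperone *NPM1* rose by 0.61 (adjusted p = 5.11e-06). Of 16 regulators of TOP mRNA translation, 8 were higher and 7 lower, with a median of 0.01. Those 15 are 93.8%, beside 67.6% of all tested genes (34.9% higher and 32.7% lower). Under either other scaling 7 were higher and 8 lower. *MTOR* was among the 8 higher in the main test, from 8.46 ± 0.128 to 11.3 ± 0.0885 FPKM (0.41, adjusted p = 3.96e-05).

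The libraries held 14317091 to 17084067 reads on genes, recovered from the FPKM as whole multiples. Among thyroid lineage markers, *PAX8* was at 67.3 to 70.8 FPKM in wild strain TPC-1 and 56.3 to 59.8 FPKM in *RRM2*-OE-TPC-1, and *FOXE1* at 4.20 to 4.41 and 3.10 to 3.26 FPKM. *TG*, *TSHR* and *SLC5A5* stayed at or below 0.113 FPKM and *NKX2-1* had no read, so these defining genes of the thyroid lineage were at or near 0 in this line. Of 8 markers of blood, endothelial and stromal cells, *PDGFRB* and *PECAM1* reached the minimum level, the latter at 0.857 to 1.04 and then 0.0268 to 0.0971 FPKM, and the others had at most 1 read in a library.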

How the data were processed

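mRNA of TPC-1 and RRM2-OE-TPC-1 was sequenced in 3 libraries each, which the study describes as biological replicates. The methods describe poly(A) selection, whereas the labels speak of depleting ribosomal RNA and of RNase R, which could change how well short mRNAs are captured. The authors deposited FPKM values, made with fastp, HISAT2 2.0.5 and featureCounts 1.5.0 on GRCh38.p14 (versions and build per the submitters' notes, which also list DESeq2 1.20.0). All 58735 identifiers, positions and gene lengths were those of GENCODE 29. Multiplied by gene length, 100% of values in each library were whole multiples of a step within 0.01, which gave reads and depth. The step followed median-of-ratios size factors rather than library totals.

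Values were analysed as log2(FPKM + 0.1) with limma 3.58.1 (R 4.3.3; lmFit, eBayes with trend) over all genes with FPKM of at least 0.5 and 10 reads in at least 3 libraries, with Benjamini-Hochberg adjustment. On this scale the fold changes of low genes come out too small. No count model was the main test, since the deposited unit is FPKM. The procedure was tested on simulated data. Python 3.11.15 (pandas 2.3.3, numpy 2.4.6, scipy 1.17.1) made the tables, and matplotlib 3.10.9 the figures.

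The members and lists were chosen with earlier results of these data known, so no test was made over a list. A few genes are not reported here, and they stay in the fits and counts. The other genes named with values are the 6 largest rises and 6 largest falls among members that passed, the 4 most abundant members, those of the 5S ribonucleoprotein, P stalk, peptidyl transferase center and readthrough loci, *RPS6*, *RPSA*, *RPS27A* and the paralogs. Any other gene was named as a member of a list or after its values were seen. Alternatives covered the pseudocount, the filter, scaling, length, the replicate number, each library left out, voom on recovered reads and protein-coding genes only. Correction for GC content and the addition of pseudogene reads were chosen after seeing the data. Counting intervals are not given, and p-values measure the spread between 3 libraries a group.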

Additional observations from a re-analysis of the deposited data

How the results depend on the processing

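With 3 libraries a group, an exact permutation test of a gene could not go below p = 0.1, so calls rest on limma's pooled spread. The count of members past an absolute log2 fold change of 1 stayed at 1 under every alternative. The members higher ranged from 15 to 22, and with a library left out from 15 to 19. The members lower were 12, and became 7 with no filter on low values, 22 after scaling to library totals and 38 after quantile normalization. They ranged from 8 to 14 with a library left out and were 18 by voom on recovered reads. Shares of all tested genes are given above only for the main test, library totals and quantile normalization. Counts under the other alternatives have no such share beside them, so a change in the overall call rate cannot be told apart. The median of members was -0.05 under library totals and -0.11 under quantile normalization, where that of all tested genes was -0.05 and 0.02. Pseudogenes higher were 16 after correction for gene length, and 6 to 11 with a library left out (6 without *RRM2*-OE-TPC-1 replicate 1), and pseudogenes lower were 20 after quantile normalization. As a share of summed FPKM the members took 6.56% and 6.17%, and without mitochondrial reads 5.26% and 5.00%, in wild strain TPC-1 and *RRM2*-OE-TPC-1. The cause of these shifts was not tested.

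A tally under the alternatives covered only the members and paralogs chosen by the naming rule above. Genes named only as members of a list or after their values were seen were not in it. Of the tallied values, 534 kept direction and side of the threshold, 15 newly passed, 16 no longer passed and 10 changed sign. *RPL11* became -0.016 under library totals and -0.086 under quantile normalization, *RPLP0* -0.005 and -0.035, and *RPS6* -0.029 under each. With a library left out, *RPS6* ranged from -0.006 (without *RRM2*-OE-TPC-1 replicate 1) to 0.055. *RPL22L1* ranged from -0.051 to 0.025, with its sign turned without *RRM2*-OE-TPC-1 replicate 1 and, at 0.01, without wild strain replicate 1. *RPS10* became -0.485 with pseudogene reads added. Outside the tally, *RPL9* turned from 0.013 to -0.045 under library totals and -0.110 under quantile normalization. *RPS28* turned from -0.042 to 0.062 with pseudogene reads added.

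With the replicate number as a block, 17 members were higher and 9 lower, with no share of all tested genes beside these counts. The numbers do not pair the libraries, since the deviations of same-numbered libraries from their group means correlated at -0.011, -0.0060 and -0.055 over 13621 genes.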
